A study of Mus musculus with 6 samples.

Results

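The genes for the nuclear-encoded subunits of the oxidative phosphorylation machinery were examined in Tregs sorted from B16 melanoma tumors, with and without deletion of *Nr3c1*, the gene for the glucocorticoid receptor (GR). Members were taken by gene name. They were the genes whose names begin with Nduf and a letter a, b, c, s or v (complex I), *Sdha* to *Sdhd* (complex II), names beginning with Uqcr and *Cyc1* (complex III), names beginning with Cox4 to Cox8 and a letter a, b or c (complex IV), and names beginning with Atp5 (complex V). Of the 12153 genes measured, 87 had such a name, and 78 remained after 8 *Ndufaf* assembly factor genes and *Ndufb1-ps* were left out. Complex I had 38 members, complex II 4, complex III 9, complex IV 10 and complex V 17. The rule used names and no measured value.

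RNA-Seq was performed on 6 libraries, 3 from control mice, labeled Nr3c1-flox, and 3 from mice labeled Nr3c1-flox_Foxp3-YFP/Cre, called *Nr3c1* Foxp3-Cre here. All mice carried B16.F10, a transplanted mouse melanoma line, and the labels place the sort at day 15 after inoculation. In *Nr3c1* Foxp3-Cre mice, Cre is expressed from the promoter of *Foxp3*, the lineage factor of Tregs, so that the floxed *Nr3c1* is deleted in cells that have expressed *Foxp3*. The labels give the floxed *Nr3c1* for both groups and the Foxp3-YFP/Cre allele for one of them, and the ages of the mice are not given in the sources used here. The labels describe the sorted cells by CD25 and the study's methods by Foxp3-YFP. How control Tregs, labeled without the YFP allele, were sorted is not given in the sources used here, so a difference in sorting cannot be told apart from one in genotype. Female and male mice were combined in the study. Values are log2 CPM, read counts scaled to a common library total, after quantile normalization by the authors. Nothing says that the libraries within a group came from separate mice, so p-values measure the spread between these libraries. Read depth is unknown, and the number of libraries limits the precision.

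Oxidative phosphorylation takes place in the inner mitochondrial membrane. Complexes I and II pass electrons from NADH and succinate to ubiquinone, complex III passes them on to cytochrome c, and complex IV hands them to oxygen. Complexes I, III and IV pump protons across the membrane, and complex V, the ATP synthase, uses the resulting gradient to make ATP. The nuclear genome encodes most subunits, and mitochondrial DNA (mtDNA) encodes a core set of complexes I, III, IV and V. Tregs are known to rely on mitochondrial respiration, and loss of complex III in Tregs is known to impair their suppressive function.

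*Nr3c1* itself was at 7.15, 7.59 and 6.88 log2 CPM in the control libraries and at 6.14, 5.45 and 5.90 in the *Nr3c1* Foxp3-Cre libraries. The groups did not overlap, and the fold change was -1.38 on the log2 scale (SE 0.21, adjusted p = 0.12, limma with Benjamini-Hochberg adjustment over all genes). Genes expressed by Tregs were measured in all libraries. *Cd4*, which conventional CD4 T cells express too, was between 8.69 and 9.32 log2 CPM, and *Foxp3* was between 3.39 and 4.47. The B cell genes *Cd79a* and *Ms4a1*, the NK cell genes *Ncr1* and *Klrb1c*, and *Cd8a* had no row in the table. All 5 melanoma genes examined were present, and *Dct*, a melanocyte pigment enzyme, stood between 10.61 and 12.22 log2 CPM. The values do not separate subunit RNA of Tregs from that of other cells, and in bulk RNA fewer cells of a type cannot be told apart from less RNA per cell.

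The subunit genes were among the well expressed genes of these libraries. Their median over members was 7.12 log2 CPM, against 4.92 over all genes, and their means ran from 3.46 (*Atp5s*) to 10.89 (*Atp5b*). Back on the linear scale, the 78 genes summed to 17411, 14663 and 15917 CPM in the control libraries and to 14944, 16887 and 15739 CPM in the *Nr3c1* Foxp3-Cre libraries, or 1.59% of the total on average. The totals of the groups overlapped. Their mean was 15997 ± 1376 CPM (SD, n = 3) without the deletion and 15857 ± 977 CPM (SD, n = 3) with it.

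Levels of different genes were compared per kb of transcript, as the mean log2 CPM of the 6 libraries minus log2 of the length. *Atp5b*, the catalytic beta subunit of the ATP synthase, had the highest level per length, 9.95 log2 CPM per kb. Within the other complexes the highest levels per length were those of *Uqcrc1*, a core subunit of complex III, at 8.97, *Ndufb8*, an accessory subunit of complex I, at 8.71, *Sdhb*, the iron-sulfur subunit of complex II, at 8.67 and *Cox6a1* of complex IV at 8.65. The lowest were *Atp5s* at 2.83, *Ndufb2* at 4.72, *Sdhc*, a membrane anchor of complex II, at 5.25, *Cox7a2l* at 6.52 and *Uqcrc2* at 6.87. *Atp5s* encodes a factor associated with the ATP synthase rather than a core subunit, and *Cox7a2l* encodes a factor known to help join complexes III and IV. The complex medians were close for complexes II to V, between 7.80 and 7.84 log2 CPM per kb, and lower for complex I at 6.97. For 5 members, *Atp5g1*, *Ndufab1*, *Ndufb2*, *Ndufc1* and *Uqcrq*, the annotated principal transcripts differ over 2-fold in length, so their level per length is uncertain. Transcripts of *Ndufb2* run from 455 to 4371 bases.

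**Figure D1:**
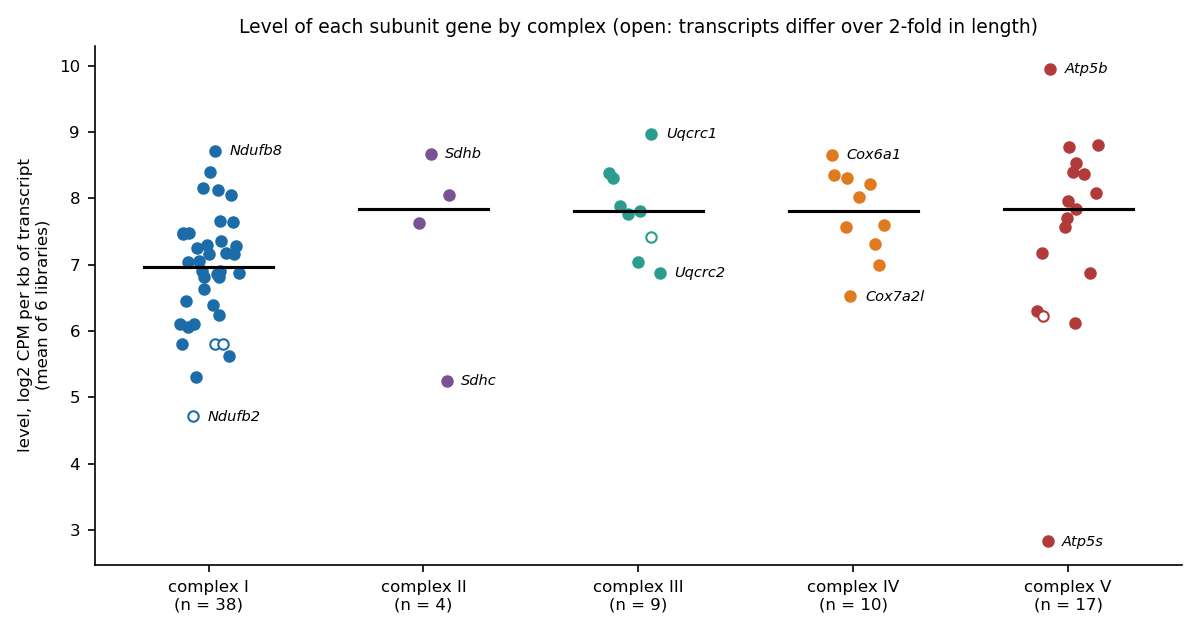
Level of each of the 78 subunit genes per length, by complex, as the mean log2 CPM of 6 libraries per kb of transcript. Each point is a gene, the line is the complex median, and open points mark genes whose transcripts differ over 2-fold in length. *Atp5b* stands highest at 9.95 and *Atp5s* lowest at 2.83, and the median of complex I (6.97) lies below the medians of the other complexes.

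Several subunits have isoform genes with tissue-restricted partners. *Cox6a1*, *Cox6b1*, *Cox7a2*, *Cox8a* and *Ndufa4* were measured, whereas their partners *Cox6a2*, *Cox6b2*, *Cox7a1*, *Cox8b* and *Ndufa4l2*, most of them known from heart, muscle or testis, had no row in the table, which excludes genes under the authors' limit of 1 CPM. *Ndufa4* is grouped here with complex I by name, although its protein is known to belong to complex IV. The c-ring of the ATP synthase, which turns as protons pass, is encoded by *Atp5g1*, *Atp5g2* and *Atp5g3*. Of their summed linear CPM, *Atp5g3* made up 56.3% ± 2.82 in control libraries and 55.7% ± 4.01 in *Nr3c1* Foxp3-Cre libraries (SD, n = 3 each). The share of *Atp5g1* was 35.1% ± 3.44 and 36.4% ± 4.38 (SD, n = 3 each), and that of *Atp5g2* was 8.63% ± 0.84 and 7.82% ± 0.55 (SD, n = 3 each). No share differed beyond the spread between libraries (exact two-sided permutation test, p = 0.9, 0.6 and 0.3 for *Atp5g3*, *Atp5g1* and *Atp5g2*, with 0.1 the smallest p that 3 against 3 allow). The ratio between transcripts depends on how reads shared by these related genes were divided.

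Promoters of many respiratory chain genes are known to hold sites for NRF1, for the ETS factor GABP and for YY1, which are regulators of nuclear genes for mitochondrial proteins. RefSeq promoter windows on GRCm38.p6, of 250 bases before to 50 bases after the annotated start, were available for 65 of the 78 members and for 9497 of the genes tested. On either strand, the NRF1 core GCATGCGC or its reverse complement was found in 10 of 65 members (15.4%, against 6.21% of all windowed genes), the ETS core CCGGAAG in 16 (24.6% against 21.3%) and the YY1 core AAGATGGC in 10 (15.4% against 5.45%). At least 1 of these was found for 30 members (46.2%, against 29.9% of all). The YY1 core stood in 7 of 33 complex I and 3 of 15 complex V promoters, and in 0 of the 3, 5 and 9 promoters of complexes II, III and IV. With 5.45% of all windowed genes holding this core, 0 in so few windows is not read as a difference between complexes. The core of a GR dimer site, ACANNNTGT, was found in 0 of 65 member windows and in 5.04% of all. These matches are descriptions of short windows. The promoters printed below were chosen within their complex for the most kinds of these cores in the printed stretch. Only stretches with at most 30 annotated exon bases were considered. The printed promoters are thus not typical of the members, of which 30 of 65 had at least 1 core. To show where the cores lie, the promoter of 1 member each of complexes III, IV and V is given from 140 bases before to 10 bases after the start, with matches in capitals: *Uqcr11* (chr10:80406812-80406961, minus strand), a small accessory subunit of complex III, *Cox8a* (chr19:7217607-7217756, minus strand), a small subunit of complex IV, and *Atp5e* (chr2:174464092-174464241, minus strand), the epsilon subunit of the ATP synthase.
Uqcr11: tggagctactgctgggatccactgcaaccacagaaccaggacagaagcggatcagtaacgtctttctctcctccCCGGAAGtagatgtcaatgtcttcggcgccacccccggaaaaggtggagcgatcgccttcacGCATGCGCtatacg
Cox8a: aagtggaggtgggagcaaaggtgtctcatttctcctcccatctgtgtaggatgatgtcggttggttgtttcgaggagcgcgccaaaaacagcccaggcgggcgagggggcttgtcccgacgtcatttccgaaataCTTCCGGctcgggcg
Atp5e: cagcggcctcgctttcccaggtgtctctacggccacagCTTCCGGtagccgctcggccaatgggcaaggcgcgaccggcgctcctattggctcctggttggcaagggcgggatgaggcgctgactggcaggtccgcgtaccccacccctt
The *Uqcr11* promoter held an ETS core that began 66 bases before the start and an NRF1 core that began 4 bases before it. The ETS cores of *Cox8a* and *Atp5e* lay on the opposite strand and began 5 and 102 bases before the start.

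The first question was whether the subunit genes differed between control and GR-deficient Tregs, and none of the 78 members differed past the test. At an adjusted p under 0.05, 0 members were called in limma's moderated test, against 0.0576% of all genes (7 of 12153). At an unadjusted p under 0.05, 0 members were called, against 3.26% of all genes (396). The smallest unadjusted p of a member was 0.113 and every adjusted p was 1.0. The control and *Nr3c1* Foxp3-Cre libraries overlapped for each of the 78 members, whereas 7.41% of all genes (901) had groups that did not overlap. All 6 libraries entered this fit, and none was imputed.

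The differences were also small in size. Member fold changes ran from -0.19 (*Uqcrb*) to 0.15 (*Cox7a2*) on the log2 scale, so that 0 of 78 reached 0.2 in either direction. Of all genes 28.6% did, and of the 5904 genes with a mean of at least 5 log2 CPM, a range that holds 75 of the members, 11.2% did. The median log2 fold change of the members was -0.018, against -0.001 over all genes, and 52 of 78 were lower in *Nr3c1* Foxp3-Cre Tregs, where 50.5% of all genes were lower. This split turned on single libraries. Without control replicate 1, 18 of 78 were lower, and without control replicate 2, 77 were. Leaving out replicate 1 or 2 of the *Nr3c1* Foxp3-Cre group gave 21 and 71. The medians of the 5 complexes turned in the same way, from 0.020 to 0.10 without control replicate 1 and from -0.094 to -0.067 without control replicate 2. For 74 of 78 members the difference was smaller than the pooled SD between libraries of a group. The 95% interval of the log2 fold change had a median half-width of 0.27 over members and lay within 0.5 of 0, a 1.41-fold change, for 74 members. The exceptions were *Ndufa4*, *Ndufb4*, *Ndufb4c* and *Atp5s*, whose intervals lay within 1. A difference smaller than these intervals was not detectable with 3 libraries a group.

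**Figure D2:**
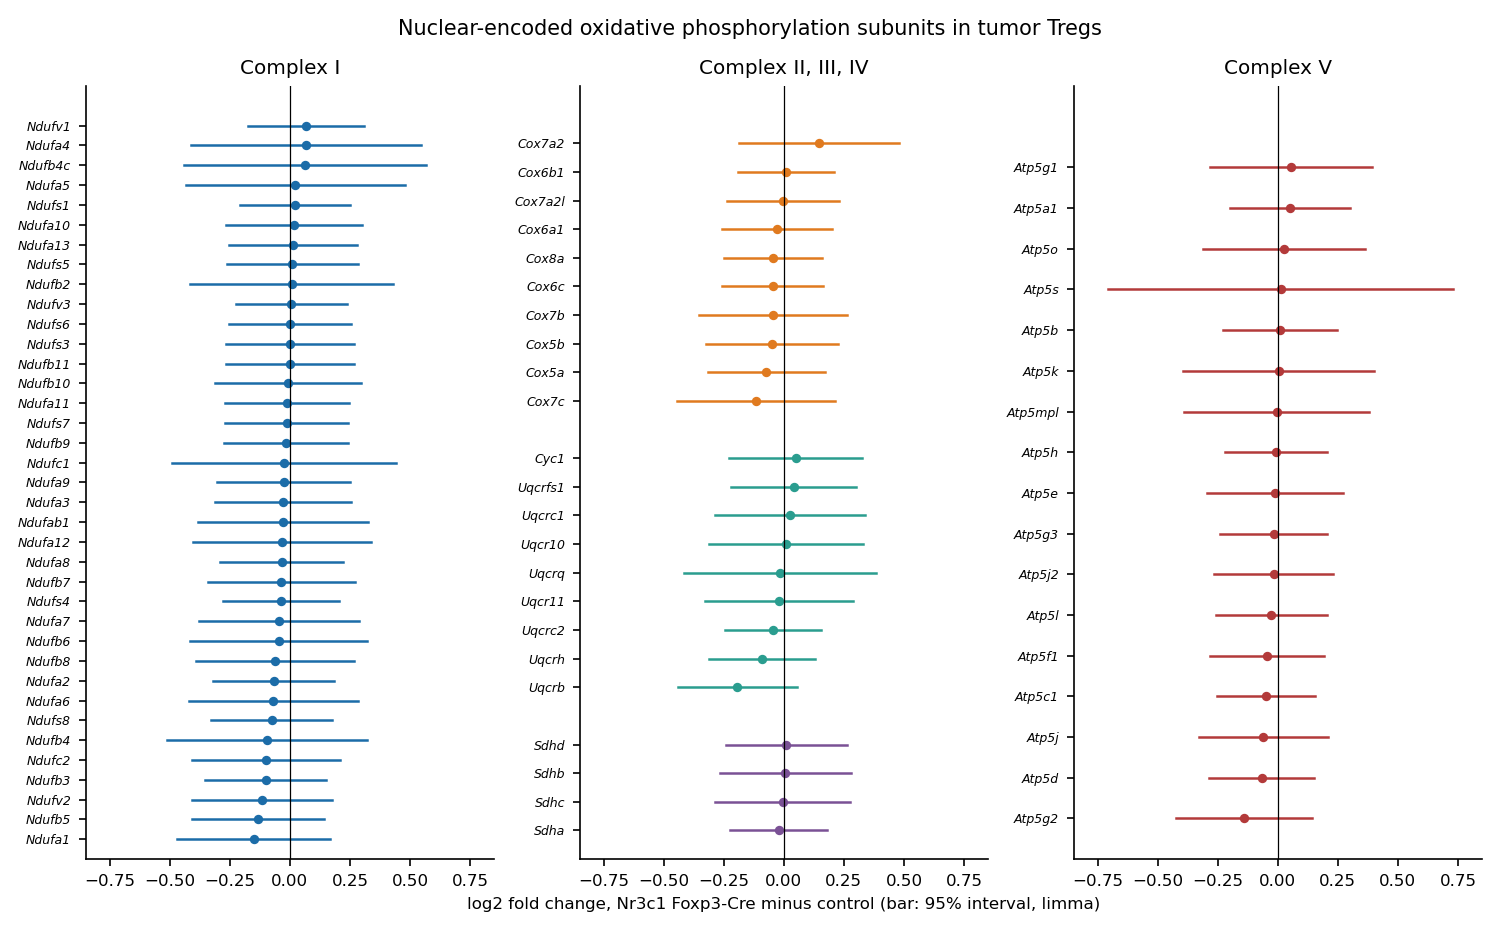
Log2 fold change of each subunit gene between *Nr3c1* Foxp3-Cre and control Tregs (points, x axis) with its 95% interval from limma (bars), grouped by complex, 3 libraries a group. The plot leaves out 1 complex I member. All intervals shown include 0, and the points lie between -0.19 and 0.15.

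Complex I had a median log2 fold change of -0.026 over 38 members, of which 26 were lower and 12 higher in *Nr3c1* Foxp3-Cre Tregs, none past the test. The median was 0.014 with the length and GC trend described at the end removed. The lowest was *Ndufa1* (chrX:37187588-37191163 on mm10), a small accessory subunit that is needed for assembly. It was at 6.89, 6.98 and 6.73 log2 CPM in control libraries and at 6.42, 6.85 and 6.88 in *Nr3c1* Foxp3-Cre libraries, a fold change of -0.15 (95% interval -0.47 to 0.17). The difference rested on *Nr3c1* Foxp3-Cre replicate 1, and the other two libraries of that group lay within the control range. *Ndufv1* (chr19:4007384-4012806), which binds NADH and FMN at the entry of the chain, was at 7.56, 7.49 and 7.48 in control and 7.38, 7.70 and 7.65 in *Nr3c1* Foxp3-Cre libraries (log2 fold change 0.07, interval -0.18 to 0.31). Here *Nr3c1* Foxp3-Cre libraries lay on both sides of the control range. *Ndufa4* had a wider spread, with 7.44 ± 0.40 in control and 7.51 ± 0.32 in *Nr3c1* Foxp3-Cre libraries (SD, n = 3 each). *Ndufb8* differed by -0.06 (interval -0.39 to 0.27) and *Ndufb2* by 0.01 (interval -0.42 to 0.43). *Ndufb4c* is annotated as a processed pseudogene and may share reads with *Ndufb4*, so both values are uncertain. Without *Ndufb4c* and *Atp5s*, the median of the members was -0.021.

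Complex II, which also works in the tricarboxylic acid (TCA) cycle, had the smallest range, with log2 fold changes from -0.02 to 0.01 in its 4 members. *Sdha* (chr13:74322254-74350280), the flavoprotein that oxidizes succinate, was at 9.19, 9.19 and 9.14 log2 CPM in control and 9.15, 9.21 and 9.09 in *Nr3c1* Foxp3-Cre libraries. Both groups were tight, with an SD of 0.03 in control and 0.06 in *Nr3c1* Foxp3-Cre Tregs, and the difference was -0.02 (interval -0.22 to 0.18). *Sdhb* (chr4:140961203-140979193) was at 9.02, 8.71 and 8.83 in control and 8.68, 8.99 and 8.92 in *Nr3c1* Foxp3-Cre libraries, and its difference was 0.01 (interval -0.26 to 0.28). Spread within each group of *Sdhb*, with an SD of 0.16 in both, was thus many times the difference between groups. *Sdhc* and *Sdhd*, the membrane anchors, differed by -0.01 (interval -0.29 to 0.28) and 0.01 (interval -0.24 to 0.26).

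Complex III held the member with the lowest fold change. *Uqcrb* (chr13:66900617-66905378), a subunit that borders the ubiquinone site, was at 7.76, 7.45 and 7.53 log2 CPM in control and 7.27, 7.47 and 7.41 in *Nr3c1* Foxp3-Cre libraries. The fold change was -0.19 (interval -0.44 to 0.06), and the groups overlapped at control replicate 2 and *Nr3c1* Foxp3-Cre replicate 2. The median of the 9 members was -0.017. *Uqcrfs1*, the Rieske iron-sulfur protein, differed by 0.04 (interval -0.22 to 0.30), and *Uqcrc2* by -0.04 (interval -0.24 to 0.15). *Cyc1* (chr15:76343523-76346260), the heme protein cytochrome c1, was at 8.57, 8.23 and 8.35 in control and 8.27, 8.59 and 8.44 in *Nr3c1* Foxp3-Cre libraries, with a difference of 0.05 (interval -0.23 to 0.33). *Uqcrc1* (chr9:108936633-108949623) was at 9.91, 9.58 and 9.56 in control and 9.51, 9.92 and 9.69 in *Nr3c1* Foxp3-Cre libraries, with a difference of 0.03 (interval -0.29 to 0.34). For both genes, control replicate 1 and *Nr3c1* Foxp3-Cre replicate 2 were the highest libraries of their groups.

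Complex IV had a median log2 fold change of -0.046 over 10 members, with 8 lower and 2 higher, and of 0.006 with the length and GC trend removed. *Cox7a2* (chr9:79755361-79759878) had the highest fold change of all members. It was at 7.04, 6.56 and 7.09 log2 CPM in control and 6.98, 7.18 and 6.97 in *Nr3c1* Foxp3-Cre libraries, a difference of 0.15 (interval -0.19 to 0.48). The value turned on control replicate 2, and without that library it was -0.02. *Cox7c*, another small subunit, differed by -0.12 (interval -0.45 to 0.21), by -0.02 without control replicate 1 and by -0.24 without control replicate 2. *Cox5a* (chr9:57521274-57532426), a subunit at the matrix side, was at 7.73, 7.45 and 7.68 in control and 7.43, 7.57 and 7.63 in *Nr3c1* Foxp3-Cre libraries (difference -0.07, interval -0.32 to 0.17). *Cox6a1*, *Cox6b1*, *Cox8a* and *Cox7a2l* differed by -0.03, 0.01, -0.05 and -0.004 on the log2 scale. *Cox4i1*, a regulatory subunit that the naming rule leaves out, differed by -0.02 (interval -0.22 to 0.18).

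Complex V had a median log2 fold change of -0.012 over 17 members, with 11 lower and 6 higher. *Atp5b* (chr10:128083273-128090391) was at 10.89, 10.83 and 10.92 log2 CPM in control and 10.98, 10.85 and 10.85 in *Nr3c1* Foxp3-Cre libraries, with a difference of 0.01 (interval -0.23 to 0.25). Its order of libraries was not that of most subunits. *Atp5g2* (chr15:102662864-102672352) had the lowest fold change of the complex, with 5.57, 5.47 and 5.74 in control and 5.51, 5.35 and 5.51 in *Nr3c1* Foxp3-Cre libraries (difference -0.14, interval -0.42 to 0.14). *Atp5g1* and *Atp5g3* differed by 0.05 (interval -0.28 to 0.39) and -0.02 (interval -0.24 to 0.21). *Atp5s*, the lowest gene of all members, ranged from 2.96 to 4.06 in *Nr3c1* Foxp3-Cre libraries alone. Its interval of -0.71 to 0.73 was the widest.

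**Figure D3:**
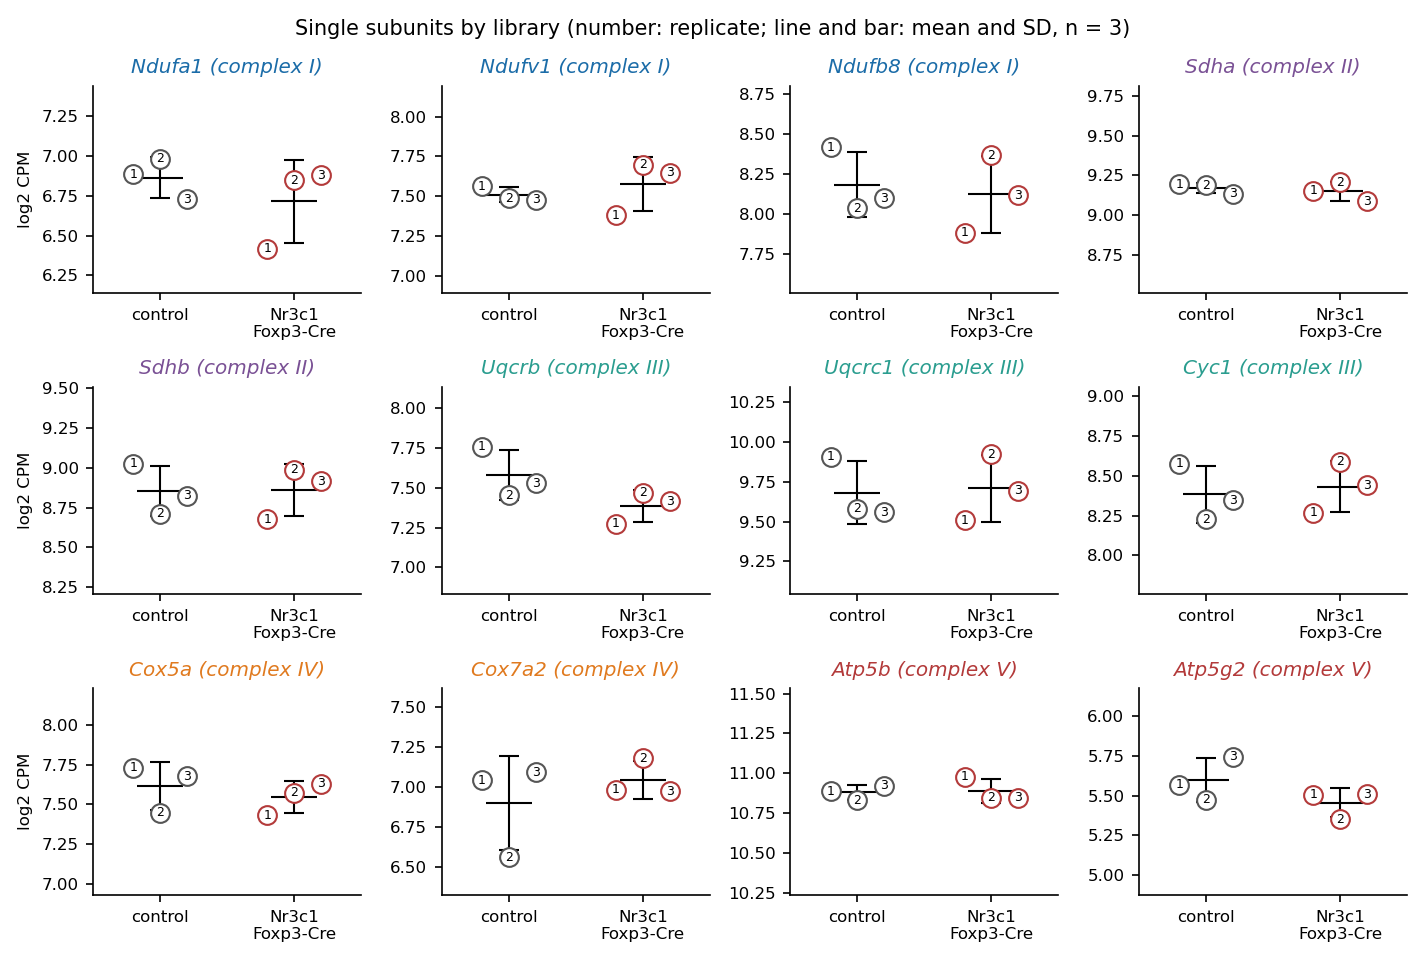
Log2 CPM (y axis, each panel spans 1.3 units) of 12 subunit genes in each library. Numbers in the circles are replicates, and the line and bar are the mean and SD of 3 libraries. Control and *Nr3c1* Foxp3-Cre values overlap in each panel, and replicate 1 is highest among control libraries in panels such as *Sdhb*, *Uqcrc1* and *Cyc1*, while replicate 2 is highest among *Nr3c1* Foxp3-Cre libraries there.

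The subunit genes differed more between libraries of a group than between the groups, and they did so together. Each gene was expressed as its deviation from its own mean over the 6 libraries, on the log2 scale. The median deviation over the 78 members was 0.15, -0.13 and 0.02 in control replicates 1, 2 and 3 and -0.14, 0.12 and -0.01 in *Nr3c1* Foxp3-Cre replicates 1, 2 and 3. These medians spanned 0.28 within control libraries and 0.26 within *Nr3c1* Foxp3-Cre libraries, whereas their group means differed by -0.02. Over all genes the library medians spanned 0.011 and 0.033, but quantile normalization holds these close by construction.

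The common order was seen gene by gene. It was read from the members' own library medians, so high counts among the members follow in part from that choice. Control replicate 1 was above control replicate 2 for 75 of 78 members, against 47.9% of all genes, and *Nr3c1* Foxp3-Cre replicate 2 was above replicate 1 for 71 of 78, against 51.5%. Both held for 70 members, for 32.7% of all genes and for 472 of the 1059 genes with transcripts under 1000 bases. By complex, both held for 37 of 38 members of complex I, 4 of 4 of complex II, 7 of 9 of complex III, 10 of 10 of complex IV and 12 of 17 of complex V. The median member was 0.28 higher in control replicate 1 than in replicate 2, and 0.26 higher in *Nr3c1* Foxp3-Cre replicate 2 than in replicate 1. Genes of 1 library share that library's input and normalization, so the 78 members are not independent measurements of it.

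The exceptions to this order were few and were named after their values were seen. *Ndufa1*, *Uqcrh* and *Atp5d* were not higher in control replicate 1 than in replicate 2. *Atp5a1*, *Atp5b*, *Atp5d*, *Atp5g2*, *Atp5g3*, *Uqcrc2* and *Uqcrh* were not higher in *Nr3c1* Foxp3-Cre replicate 2 than in replicate 1. Of the latter, 5 belong to the ATP synthase, among them the alpha and beta subunits of its catalytic head, and the summed linear CPM of complex V was 5778, 5769 and 5693 in *Nr3c1* Foxp3-Cre libraries. In control libraries complex V summed to 6065, 5323 and 5859 CPM, with replicate 1 highest and replicate 2 lowest. Complex I summed to 4249, 5346 and 4813 CPM in *Nr3c1* Foxp3-Cre libraries and to 5488, 4429 and 4767 CPM in control libraries.

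**Figure D4:**
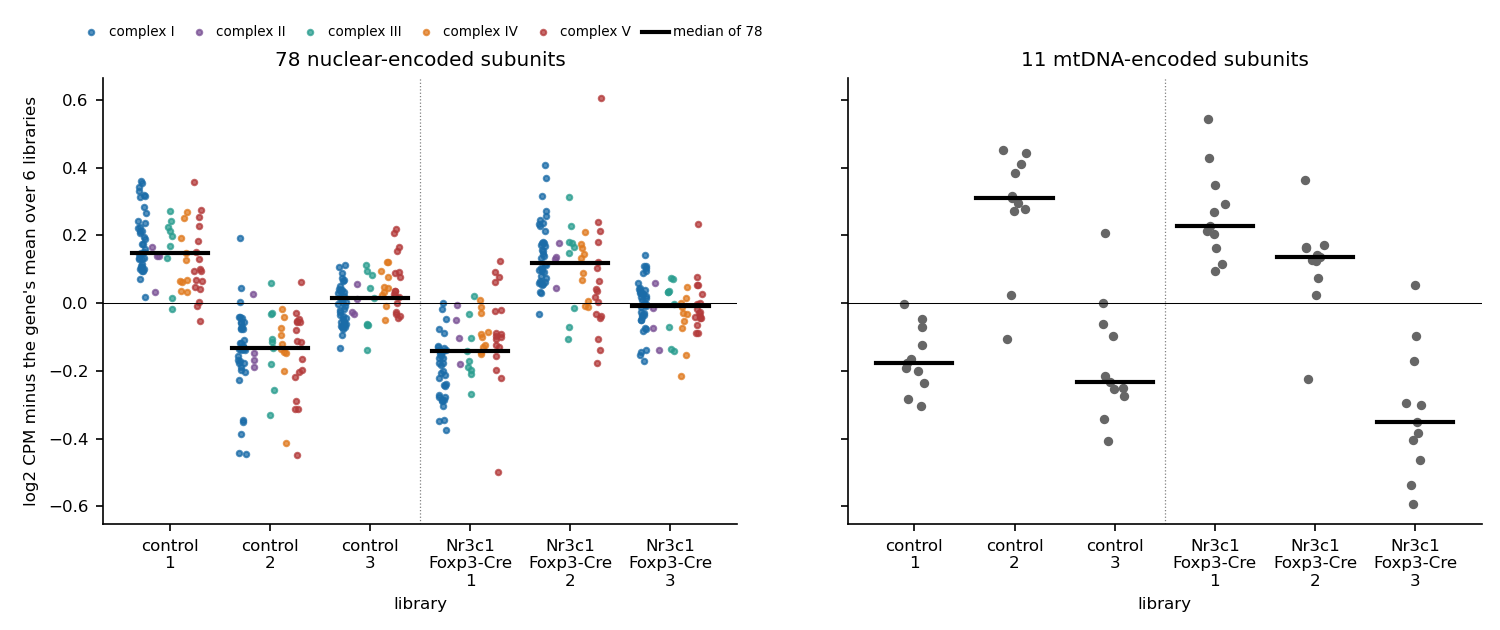
Deviation of each gene's log2 CPM from its mean over 6 libraries (y axis), by library (x axis). Left, 78 nuclear-encoded subunit genes by complex, and right, 11 mtDNA-encoded subunit genes, with the median of all points of a library as a black line. The nuclear-encoded medians are highest in control replicate 1 (0.15) and lowest in *Nr3c1* Foxp3-Cre replicate 1 (-0.14), and the mtDNA-encoded medians are highest in control replicate 2 (0.31) and lowest in *Nr3c1* Foxp3-Cre replicate 3 (-0.35).

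The subunits encoded by mtDNA took another order. Of 13 such genes, 11 were measured. Their median deviation was -0.18, 0.31 and -0.23 in control replicates 1, 2 and 3 and 0.23, 0.14 and -0.35 in *Nr3c1* Foxp3-Cre replicates 1, 2 and 3. Control replicate 2, in which the nuclear-encoded subunits were low, thus had the highest mtDNA-encoded median, and both kinds of subunit were above their means in *Nr3c1* Foxp3-Cre replicate 2. For 0 of 11 did both orders of the nuclear-encoded members hold. The mtDNA-encoded genes had a median log2 fold change of 0.05, with 5 lower and 6 higher. *mt-Co3*, a core subunit of complex IV, was at 7.03, 7.35 and 7.08 log2 CPM in control and 7.45, 7.69 and 7.38 in *Nr3c1* Foxp3-Cre libraries. Its groups did not overlap, and its fold change was 0.36 (SE 0.12, limma unadjusted p = 0.018, adjusted p = 1.0), which did not pass the test over all genes. *mt-Co1* and *mt-Co2*, of the same complex, differed by 0.11 (interval -0.35 to 0.57) and -0.02 (interval -0.57 to 0.52).

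Other genes of mitochondrial respiration were taken from lists. Of 39 assembly factor genes, 1 had an unadjusted p under 0.05, where 3.26% of all genes did. Their median log2 fold change was -0.06, and 29 were lower, or 74.4%, against 50.5% of all genes. Whether this split turned on single libraries or on the length and GC trend, as that of the subunit genes did, was not tested. The 1 gene was *Sdhaf1*, which helps insert iron-sulfur clusters into the *Sdhb* protein, at 6.02, 6.46 and 6.11 log2 CPM in control and 5.45, 5.63 and 6.02 in *Nr3c1* Foxp3-Cre libraries (log2 fold change -0.50, SE 0.17, unadjusted p = 0.019, adjusted p = 1.0). Its groups overlapped at *Nr3c1* Foxp3-Cre replicate 3. None of 13 TCA cycle enzyme genes (median -0.01), 11 genes for mobile carriers and exchange such as *Cycs* and the ADP/ATP carriers (median -0.03), or 14 biogenesis regulators (median 0.02) had an unadjusted p under 0.05. Among regulators, *Nrf1* differed by 0.01 (interval -0.23 to 0.25), *Gabpa* by 0.16 (interval -0.16 to 0.49) and *Yy1* by -0.36 (interval -0.81 to 0.08). Both orders of the subunit genes held for 28 of 39 assembly factors, 9 of 11 carriers and exchangers and 8 of 13 TCA cycle enzymes, and for 2 of 14 regulators.

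Melanoma and macrophage marker genes moved with the subunit genes across libraries. The 5 melanoma genes (*Pmel*, *Tyr*, *Tyrp1*, *Dct* and *Mlana*) summed to 9051, 3373 and 6782 CPM in control libraries and 6121, 9468 and 3766 CPM in *Nr3c1* Foxp3-Cre libraries, and both orders of the subunit genes held for 5 of 5. Their lowest *Nr3c1* Foxp3-Cre library was replicate 3, however, where that of the subunit genes was replicate 1. The 6 macrophage genes, with *Lyz2* highest, had a median log2 fold change of -0.40. All 6 were lower in *Nr3c1* Foxp3-Cre libraries, where 50.5% of all genes were lower, and 0 had an unadjusted p under 0.05. They summed to 486, 331 and 385 CPM in control and to 242, 478 and 280 CPM in *Nr3c1* Foxp3-Cre libraries, and both orders held for 6 of 6. The 6 genes listed for Tregs were *Foxp3*, *Il2ra*, *Ctla4*, *Ikzf2*, *Cd4* and *Cd3e*, of which *Cd4* and *Cd3e* are expressed by other T cells too. In contrast, these 6 summed to 1839, 2826 and 2388 CPM in control and to 2533, 1823 and 2184 CPM in *Nr3c1* Foxp3-Cre libraries. Both orders held for 0 of 6. The 3 collagen genes used as fibroblast markers were lower in *Nr3c1* Foxp3-Cre libraries, at 425, 164 and 321 CPM against 71, 151 and 86 CPM, with unadjusted p under 0.05 for 3 of 3 and adjusted p under 0.05 for 0, and both orders held for 3 of 3. *Cd8b1*, of CD8 T cells, was at 8, 16 and 13 CPM in control and 13, 10 and 10 CPM in *Nr3c1* Foxp3-Cre libraries, and did not follow either order. In a further fit the mean of the melanoma genes was a covariate, a term added after the data were seen. There 0 members had an unadjusted p under 0.05, and the median log2 fold change was -0.016. The share of all genes called in that fit is not given here, so the 0 is not read as a result about the members. Beyond that fit, the part of these cells in the subunit values was not tested.

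**Figure D5:**
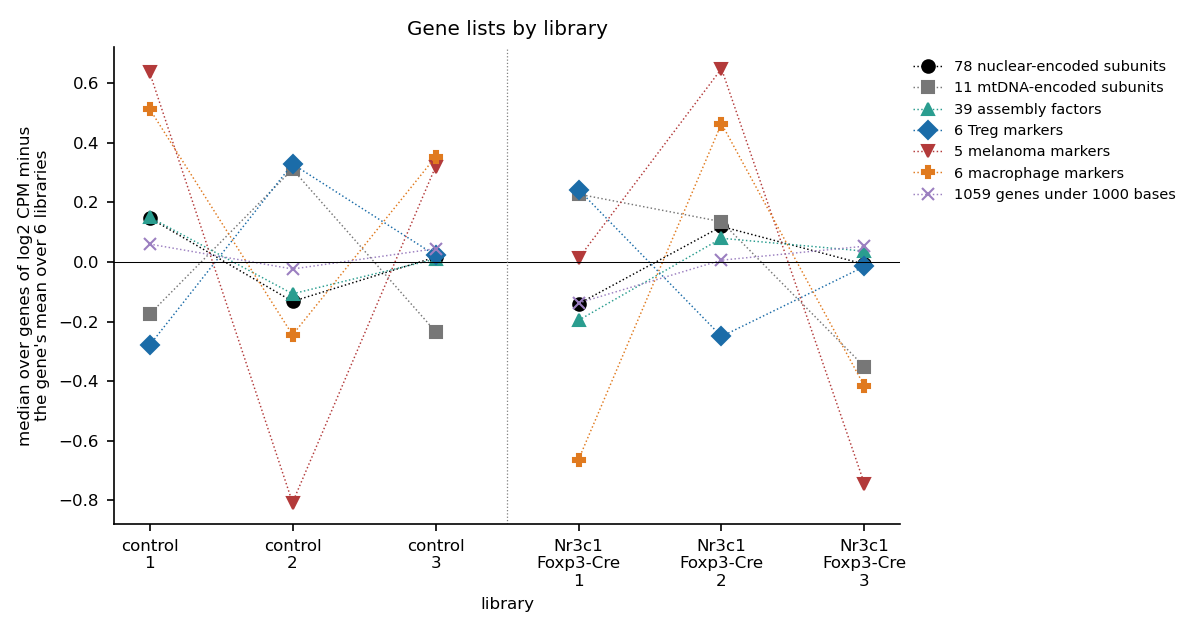
Median deviation of log2 CPM from each gene's mean over 6 libraries (y axis) for 7 gene lists, by library (x axis). The dotted lines only join points of a list within a group, since replicates have no order. The 78 subunit genes and 39 assembly factors lie close together, melanoma and macrophage genes share their maxima in control replicate 1 and *Nr3c1* Foxp3-Cre replicate 2, and Treg genes have their minima there (-0.28 and -0.25).

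Transcript length moved with part of the pattern as well. Subunit transcripts were short, with a median of 863 bases against 2792 over all genes, and 47 of 78 were under 1000 bases. The 1059 genes under 1000 bases had median deviations of 0.06, -0.02 and 0.04 in control replicates 1, 2 and 3 and -0.14, 0.01 and 0.05 in *Nr3c1* Foxp3-Cre replicates 1, 2 and 3, and 66.0% of them were lower in *Nr3c1* Foxp3-Cre Tregs, close to the 66.7% of the members. After the trend of each library with length and GC content was removed, the members' medians were 0.10, -0.10 and -0.01 in control and -0.02, 0.10 and -0.06 in *Nr3c1* Foxp3-Cre libraries, and the median log2 fold change became 0.019, with 26 of 78 lower. The direction of the members' median therefore depended on this correction.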

How the data were processed

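Libraries were made with a low-input cDNA kit and a transposase-based library kit that do not mark strand. Reads were trimmed by the authors (Cutadapt), aligned to mm10 (STAR) and the authors then estimated counts with RSEM on GENCODE M21, removed genes under 1 CPM and quantile normalized the rest. The deposited values are log2 CPM for 12153 genes, with 852 negative values, and each library sums to 999633 or 999634 CPM. Read depth and voom weights cannot be recovered from them. The 6 libraries were grouped by the genotype in the labels. Table columns headed WT were taken as the control samples, which their replicate numbers and the other column names leave as the match.

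The groups were compared in limma 3.58.1 under R 4.3.3 (lmFit, eBayes with a mean-variance trend) across the whole table. Genotype was the sole term. P-values were adjusted by the Benjamini-Hochberg method over every gene, with a threshold of 0.05. Transcript length was the median of principal transcripts in GENCODE M21, to which all 12153 genes matched. Promoter windows were RefSeq's on GRCm38.p6, and 2 members matched by identifier or synonym rather than by symbol. No protein sequence was used.

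The members, the lists and the rule for named genes were chosen with earlier results of these data known. Named members were those with the highest and lowest fold change and level per length of each complex, any with an unadjusted p under 0.05, core subunits and genes of isoform families. A further gene of this rule is not reported here. From each list, up to 3 genes with an unadjusted p under 0.05 were named. *Cox4i1*, *mt-Co1*, *mt-Co2*, *Nrf1*, *Gabpa* and *Yy1* were added for context. Alternatives were sample quality weights, vooma weights, eBayes that was robust or had no trend, cyclic loess, median centering, log2(CPM + 1), a floor at log2 0, a minimum mean of log2 1, a length and GC trend removed, the replicate number as a block, each library left out, and a melanoma marker covariate, added after the data were seen.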

Additional observations from a re-analysis of the deposited data

How the results depend on the processing

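At an adjusted p under 0.05, 0 members were called under each of 19 alternatives, and at an unadjusted p under 0.05, 0 were called under 18 of them. Sample quality weights gave control replicate 3 a weight of 7.47 and the other libraries 0.52 to 0.86. With them 1 member (*Atp5g2*) had an unadjusted p under 0.05, and the cause was not tested. The share of all genes called under these alternatives is not given here, so whether these counts of members are high or low is not said. The members' median log2 fold change lay between -0.027 and 0.019 with all libraries and between -0.087 and 0.047 with 1 library left out. Leaving out control replicate 1 gave 0.047 and control replicate 2 gave -0.087. Leaving out replicate 1 or 2 of the *Nr3c1* Foxp3-Cre group gave 0.038 and -0.083. With 1 library left out, the members whose groups did not overlap numbered from 1 to 9, since 2 libraries overlap less often. They were 9 when control replicate 2 and 3 when *Nr3c1* Foxp3-Cre replicate 2 was the one left out. The share of all genes in these fits is not given here, so whether these numbers are high or low is not said. In the fit with the replicate number as a block, 0 members had an unadjusted p under 0.05. The median was -0.018, which such a block cannot change in this balanced design. Same-numbered libraries had correlations of -0.12, -0.33 and -0.025 between their deviations from the group means. Those of differently numbered libraries ran from -0.269 to 0.365. Deviations within a group depend on each other, so these values cannot show whether same-numbered libraries shared more than a number. The block changed no call.

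Fold changes of single members changed sign, also that of *Cox7a2*, at 0.15 the highest of the members, and none of these was past a threshold. With sample quality weights the log2 fold changes were *Atp5b* -0.021, *Atp5s* -0.17, *Cox6b1* -0.034, *Cox7a2* -0.024, *Ndufb2* -0.039, *Sdha* 0.0029, *Sdhd* -0.014. With the length and GC trend removed, with or without the block, they were *Atp5g3* 0.030, *Cox7a2l* 0.048, *Uqcrc2* 0.0029. With the melanoma covariate it was 0.00015 for *Sdhc*. With 1 library left out they ran from -0.033 to 0.033 for *Atp5b*, -0.088 to 0.20 for *Atp5g1*, -0.083 to 0.033 for *Atp5g3*, -0.29 to 0.26 for *Atp5s*, -0.10 to 0.028 for *Cox6a1*, -0.038 to 0.033 for *Cox6b1*, -0.022 to 0.24 for *Cox7a2*, -0.071 to 0.059 for *Cox7a2l*, -0.029 to 0.14 for *Cyc1*, -0.14 to 0.26 for *Ndufa4*, -0.18 to 0.18 for *Ndufb2*, -0.18 to 0.059 for *Ndufb8*, -0.051 to 0.0089 for *Sdha*, -0.065 to 0.10 for *Sdhb*, -0.10 to 0.063 for *Sdhc*, -0.070 to 0.084 for *Sdhd*, -0.082 to 0.14 for *Uqcrc1* and -0.037 to 0.12 for *Uqcrfs1*. Of all 78 members, 26 changed sign with the length and GC trend removed and 34 without control replicate 1. Members that kept their sign also moved with 1 library left out, from -0.24 to -0.02 for *Cox7c*, -0.16 to -0.016 for *Cox5a*, -0.23 to -0.0016 for *Ndufa1*, -0.26 to -0.10 for *Uqcrb*, -0.20 to -0.066 for *Atp5g2* and 0.0053 to 0.16 for *Ndufv1*. The medians of complexes I, III, IV and V were 0.014, 0.020, 0.006 and 0.030 with the length and GC trend removed.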
